A study of Mus musculus with 24 samples.

Results

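The hepatobiliary transporters described here are 10 membrane proteins that move bile acids, bilirubin conjugates, phospholipid and organic anions across the 2 faces of the hepatocyte. They were chosen by gene symbol from the 56205 gene rows of a count table of mouse liver, and all 10 had a row: Slc10a1, Slco1a1, Slco1a4, Slco1b2, Abcb11, Abcb4, Abcc2, Abcc3, Abcc4 and Slc51b. Of these, 9 passed a filter on low counts and were among the 14109 genes tested, while Slc51b did not pass and is given by its counts. The study took whole livers of 24 C57BL/6J mice for poly(A) RNA sequencing, 12 on a methionine-choline deficient (MCD) diet, a mouse model of fibrosing steatohepatitis, and 12 on a control diet, each for 20 weeks. The labels name no transgene and no other treatment. Each diet was given to 6 males and 6 females, but no label gives the sex of a library, and each diet therefore forms a single group of 12 libraries. The labels do not say whether any mice shared a litter or cage, and the study's methods describe its MCD diet as high in fat.

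A hepatocyte takes up bile acids from portal blood through its basolateral face, mainly by the sodium-dependent carrier NTCP (Slc10a1) and by organic anion transporting polypeptides of the Slco families. It secretes them across the canalicular face through the bile salt export pump BSEP (Abcb11), while Abcb4 adds phosphatidylcholine and Abcc2 adds bilirubin glucuronides and glutathione conjugates. Carriers that work back towards the blood (Abcc3, Abcc4 and the heteromer of Slc51a and Slc51b) form an alternative route out of the cell, and in cholestasis the uptake carriers are known to be lowered and the alternative route raised, in part through the bile acid receptor FXR (Nr1h4) and its target SHP (Nr0b2).

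The sequences just upstream of the transcription starts of 5 members are shown as a description, and no result below rests on them. They are the 3 with the clearest fall on the MCD diet (Slc10a1, Slco1b2 and Abcb11) and 2 whose level followed a sex-linked score in control livers (Slco1a1 and Abcc4). Each is the 250 bases before the RefSeq start on the gene's own strand in build GRCm38.p6, with its last base next to the start, and RefSeq held such a window for 9 of the 10 members. Capitals mark matches on either strand to 5 short motifs. These are the nuclear receptor hexamer AGGTCA, the inverted repeat AGGNCANTGACCT of the kind FXR binds with RXR (N is any base), TGACNNNGC (core of the antioxidant response element), TTCNNNGAA (STAT5 type) and GTTAAT (HNF1 type).
Slc10a1, chr12:80968706-80968955, minus strand: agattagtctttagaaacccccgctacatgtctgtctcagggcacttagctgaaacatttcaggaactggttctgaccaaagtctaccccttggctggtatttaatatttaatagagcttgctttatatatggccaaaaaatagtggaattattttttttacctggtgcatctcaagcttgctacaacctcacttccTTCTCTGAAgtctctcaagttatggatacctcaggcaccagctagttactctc
Slco1b2, chr6:141629268-141629517, plus strand: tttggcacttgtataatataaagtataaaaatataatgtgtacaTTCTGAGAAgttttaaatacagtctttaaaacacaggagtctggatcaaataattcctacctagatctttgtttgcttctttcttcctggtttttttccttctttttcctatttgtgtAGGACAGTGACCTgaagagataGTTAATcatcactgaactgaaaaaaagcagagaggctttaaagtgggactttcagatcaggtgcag
Abcb11, chr2:69342617-69342866, minus strand: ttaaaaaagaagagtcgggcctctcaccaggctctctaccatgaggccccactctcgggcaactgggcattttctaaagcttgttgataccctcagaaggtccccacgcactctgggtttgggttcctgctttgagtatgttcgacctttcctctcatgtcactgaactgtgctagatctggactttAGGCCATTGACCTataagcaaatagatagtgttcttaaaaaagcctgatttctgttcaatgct
Slco1a1, chr6:141946963-141947212, minus strand: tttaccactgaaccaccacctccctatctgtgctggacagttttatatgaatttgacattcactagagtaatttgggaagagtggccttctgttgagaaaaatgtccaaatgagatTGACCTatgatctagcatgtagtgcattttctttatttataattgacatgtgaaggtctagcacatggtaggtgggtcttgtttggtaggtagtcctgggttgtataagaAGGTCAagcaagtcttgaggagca
Abcc4, chr14:118706220-118706469, minus strand: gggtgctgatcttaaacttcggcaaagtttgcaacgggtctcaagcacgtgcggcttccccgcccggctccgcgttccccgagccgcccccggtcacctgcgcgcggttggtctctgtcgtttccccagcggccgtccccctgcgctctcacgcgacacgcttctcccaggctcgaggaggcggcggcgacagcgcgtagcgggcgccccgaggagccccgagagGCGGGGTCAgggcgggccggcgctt

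The inverted repeat lay 63 bases before the start of Abcb11 and 88 bases before that of Slco1b2, counted to the first base of the match. Its right arm is AGGTCA read on the other strand, so that each repeat is also a match of the hexamer. Of 32851 upstream windows of the same length, 11 (0.0335%) held it, against 14.0% for AGGTCA, 10.2% for TGACNNNGC, 7.02% for TTCNNNGAA and 6.43% for GTTAAT. The repeat was searched after the Abcb11 window had been seen, and the 9 other genes with it included 3 that were tested, of which 2 were higher and 0 lower on the MCD diet. Slc10a1 held a TTCNNNGAA match, Slco1a1 held 2 of AGGTCA and Abcc4 had a single one, of TGACNNNGC. Slco1a4 followed the score in control livers too, and its window, not shown, held no match. These matches describe the letters and were not tested for binding.

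Total counts ran from 16793207 to 24915175 in control and from 16388650 to 24577848 in MCD libraries, and TMM scaling factors from 0.642 to 0.973 in control and from 1.07 to 1.26 in MCD. The library of control replicate 12 stood apart, with the lowest factor and a median correlation of 0.918 with its own diet, and values without it are given beside the results whose call it changed or whose size it moved most. The liver label held in every library, as the 12 hepatocyte markers together made up 93140 to 211800 CPM (counts per 1000000 scaled counts) in control and 74120 to 103500 CPM in MCD. Under TMM 8 of these markers fell and 1 rose on the MCD diet, while with scaling by total counts alone 0 of the 12 fell. Markers of other cell types differed as well under TMM. Of 10 cholangiocyte markers 8 rose, with a summed level of 83.3 to 221 CPM in control and 515 to 975 CPM in MCD. So did 8 of 9 mesenchymal and 6 of 10 macrophage markers, while 3 macrophage and 5 of 7 endothelial markers fell. The part of those cells in the transporter values was not tested. In whole liver, fewer hepatocytes and less transcript per hepatocyte cannot be told apart.

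The first comparison asked how the transporters differed between the diets. Transcripts of 6 of the 10 members were lower in MCD livers: the uptake carriers Slc10a1, Slco1b2 and Slco1a4, the canalicular pumps Abcb11 and Abcc2, and Abcc3 of the alternative route, which lay only just past the fold limit. The largest called fall was that of Slc10a1, to 0.226 of the control level, and Abcb11 fell to 0.415. None of the 10 was called higher. Abcb4, Slco1a1 and Abcc4 did not pass the threshold, which asked for a log2 fold change beyond 0.5 in either direction and an FDR (Benjamini-Hochberg, edgeR's quasi-likelihood test, all 14109 genes) of at most 0.01. By the same rule 38.3% of all genes tested were called, 19.1% as lower and 19.2% as higher. The median log2 fold change (MCD minus control) was -1.27 over the 9 members tested and -0.10 over all genes.

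**Figure D1:**
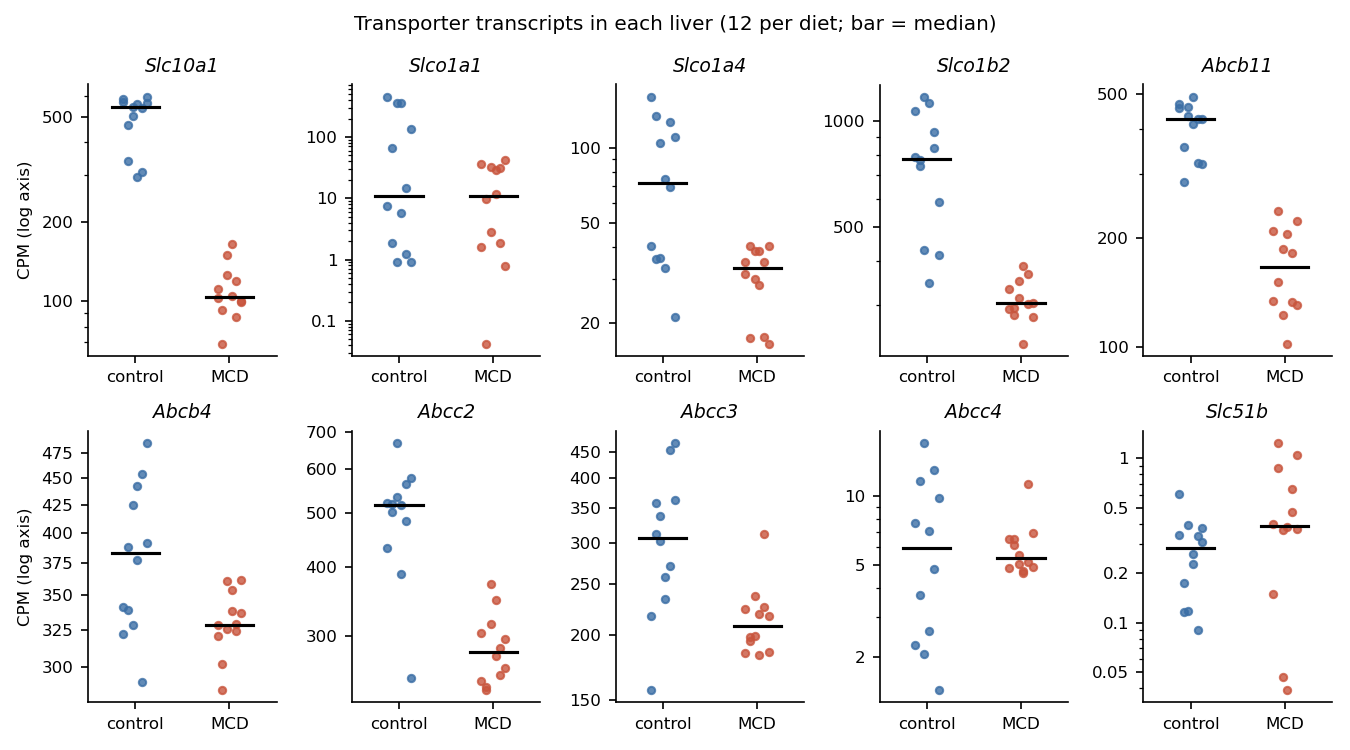
TMM-scaled CPM of the 10 transporters in each liver, on log axes that differ between panels, by diet (12 points each, bar at the median). Slc10a1 and Abcb11 show no overlap between the diets, Slco1a1 and Abcc4 spread widely among control livers, and Slc51b stays near or below 1 CPM.

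Slc10a1 (ENSMUSG00000021135, chromosome 12, 80953183 to 80968705, minus strand, GRCm38) encodes NTCP, the main sodium-dependent carrier of conjugated bile acids. Its level ran from 296 to 596 CPM in control livers (median 543) and from 69.1 to 164 CPM in MCD livers (median 104). Every MCD liver lay below every control liver, and within the control group replicates 4, 11 and 8 were the lowest, at 296, 309 and 339.9 CPM. MCD livers thus lay 4.43-fold lower, at -2.15 on the log2 scale (SE 0.14, edgeR FDR 3.56e-12).

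The Slco genes of the group, Slco1b2, Slco1a4 and Slco1a1, lie between positions 141629518 and 141946962 of chromosome 6. Slco1b2 (ENSMUSG00000030236, 141629518 to 141686646, plus strand) encodes the liver-specific sodium-independent carrier of bile acids, bilirubin and drugs. It ranged from 346 to 1169 CPM in control (median 781) and from 233 to 388 CPM in MCD (median 303). In 9 MCD livers it was below every control liver, and in 11 control livers it was above every MCD liver. The fall was -1.30 (SE 0.17, edgeR FDR 2.03e-07) on the log2 scale.

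Slco1a4 (ENSMUSG00000030237, 141805440 to 141856199, minus strand), a carrier of bile salts and cardiac glycosides, ranged from 21.04 to 159.5 CPM in control (median 72.1) and from 16.5 to 40.6 CPM in MCD (median 33.1). Its groups overlapped: 8 control livers were above every MCD liver, while control replicates 8, 9, 10 and 12 had 35.9, 36.3, 33.2 and 21.04 CPM. It fell by 1.36 on the log2 scale (SE 0.28, edgeR FDR 0.000148).

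Slco1a1 (ENSMUSG00000041698, 141907282 to 141946962, minus strand), an organic anion carrier known to be expressed more in male than in female mouse liver, had the widest spread of the group. Control livers ran from 0.896 to 451.5 CPM and MCD livers from 0.0426 to 42.7 CPM, while the medians were 11.04 and 10.7 CPM. The 5 control livers above every MCD liver were replicates 1, 9, 10, 12 and 8, at 451.5, 358, 355, 137 and 65.3 CPM. The log2 fold change of -2.80 (SE 0.98, edgeR FDR 0.0148) therefore rested on group means of 117 and 16.7 CPM and did not pass the FDR limit. It passed with DESeq2 (-2.70, FDR 0.00622) and, in edgeR, without control replicate 6 (-2.93, FDR 0.00989). The value was smaller and did not pass with limma-voom (-1.45, FDR 0.308), with the score as a covariate (-1.54, edgeR FDR 0.0246) and with the replicate block (-1.34, edgeR FDR 0.157). Slco1a1 had no value where at least 10 counts were required in every sample, as 1 MCD library held 1 count.

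Abcb11 (ENSMUSG00000027048, chromosome 2, 69238282 to 69342616, minus strand) encodes BSEP, the step that sets bile-acid-dependent bile flow. It ranged from 285 to 489.6 CPM in control (median 425) and from 102 to 238 CPM in MCD (median 167). As for Slc10a1, every MCD liver was below every control liver, a separation that 2 of the 9 members tested and 4.88% of all genes showed in that direction. Abcb11 fell by 1.27 (SE 0.13, edgeR FDR 5.76e-09), or 2.41-fold. Its exons overlap the predicted genes Gm13614 and Gm13613 on the opposite strand, and whether counting used strand is not given in the sources used here, but only 1.79% of the 50-base stretches of its longest transcript occur in another gene.

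Abcb4 (ENSMUSG00000042476, chromosome 5, 8893717 to 8959231, plus strand), the flippase that moves phosphatidylcholine into bile, ranged from 290.1 to 485 CPM in control (median 383) and from 285 to 361 CPM in MCD (median 329). Only 1 MCD liver lay below all control livers, and 7 control livers lay above all MCD livers. The log2 fold change of -0.21 (SE 0.08, 95% interval -0.37 to -0.05, edgeR FDR 0.0243) did not pass, and it was -0.14 (edgeR FDR 0.0835) without control replicate 12. Under total counts alone the difference turned to 0.16 (FDR 0.0936).

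Abcc2 (ENSMUSG00000025194, chromosome 19, 43782192 to 43840740, plus strand), which exports conjugated bilirubin, ranged from 252 to 667 CPM in control (median 517) and from 240.3 to 373 CPM in MCD (median 282). In 11 control livers it was above every MCD liver, and the exception was control replicate 12, at 252 CPM. Its fall was -0.78 (SE 0.11, edgeR FDR 1.33e-06), and -0.82 without that library. The call was lost with total counts alone (-0.45, FDR 0.00528) and with factors taken from the hepatocyte markers (-0.46, FDR 0.0139).

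Of the carriers of the alternative basolateral route, Abcc3 was called lower, Abcc4 was not called and Slc51b was not tested in the main fit. Abcc3 (ENSMUSG00000020865, chromosome 11, 94343295 to 94392997, minus strand), which returns glucuronides to the blood and is also present in bile duct cells, ranged from 156 to 467 CPM in control (median 308) and from 182 to 313 CPM in MCD (median 208). No MCD liver was below all control livers, since control replicate 1 had 156 CPM. At -0.53 (SE 0.14, edgeR FDR 0.0015) the difference was called, but it dropped inside the fold limit of 0.5 in 9 of the 12 other alternatives, was inside a raised limit of 1 in another, and was inside the limit of 0.5 in 12 of the 24 fits that left out a library (to -0.43, FDR 0.00489, without control replicate 12). It was past neither limit with upper-quartile factors (-0.39, edgeR FDR 0.0183), with total counts alone (-0.17, edgeR FDR 0.297) or with factors from the hepatocyte markers (-0.17, edgeR FDR 0.413).

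Abcc4 (ENSMUSG00000032849, chromosome 14, 118482692 to 118706219, minus strand), a basolateral exporter of bile acids with glutathione, was low throughout, at 1.44 to 17.0 CPM in control (median 5.95) and 4.66 to 11.3 CPM in MCD (median 5.37). All MCD livers lay within the control range, and 11 of the 12 lay between 4.66 and 6.89 CPM. The log2 fold change was -0.21 (SE 0.31, 95% interval -0.84 to 0.43, edgeR FDR 0.576). The interval of Abcc4 thus covers changes of either sign, and the sign itself turned under 6 alternatives.

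Slc51b (ENSMUSG00000053862, chromosome 9, 65412714 to 65422955, minus strand) encodes the beta subunit of the basolateral bile acid exporter. Control libraries held 2 to 13 counts of it, with a median of 4.5, and MCD libraries 1 to 29, with a median of 9.5. Of these, 8 control and 9 MCD libraries exceeded 3 counts, the floor taken here for a resolved level. In CPM the ranges were 0.0896 to 0.605 and 0.0388 to 1.23, with 4 MCD livers above and 2 below every control liver. Fitted without the low-count filter, Slc51b was at 0.88 on the log2 scale (SE 0.42, edgeR FDR 0.0944 over 27553 genes), which did not pass. Part of its signal is uncertain, as its exons overlap Rasl12 on the opposite strand and 6.52% of its 50-base stretches occur there. The alpha subunit, Slc51a, was also below the filter, at 0.0558 to 4.995 CPM in control (median 0.485) and 0.211 to 0.85 CPM in MCD (median 0.437). In the same unfiltered fit it was at -0.75 (SE 0.44, edgeR FDR 0.188), opposite in sign to Slc51b, and did not pass.

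Because MCD and control libraries differed in scaling factors, the members were also read under other scalings. Against TMM, the median of all genes rose by 0.37 on the log2 scale with total counts alone, by 0.39 with factors that equalize the mean log2 level of the hepatocyte markers and by 0.15 with upper-quartile factors. Slc10a1 (-1.76), Slco1a4 (-0.996), Slco1b2 (-0.94) and Abcb11 (-0.86) remained called with the hepatocyte factors, with edgeR FDR values of at most 0.0046. For these 4 the fall was thus larger than the mean of the hepatocyte marker list. The 12 marker genes had a median log2 fold change of -0.66 under TMM. Abcb4 and Abcc4 changed sign under both of the stronger shifts.

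**Figure D2:**
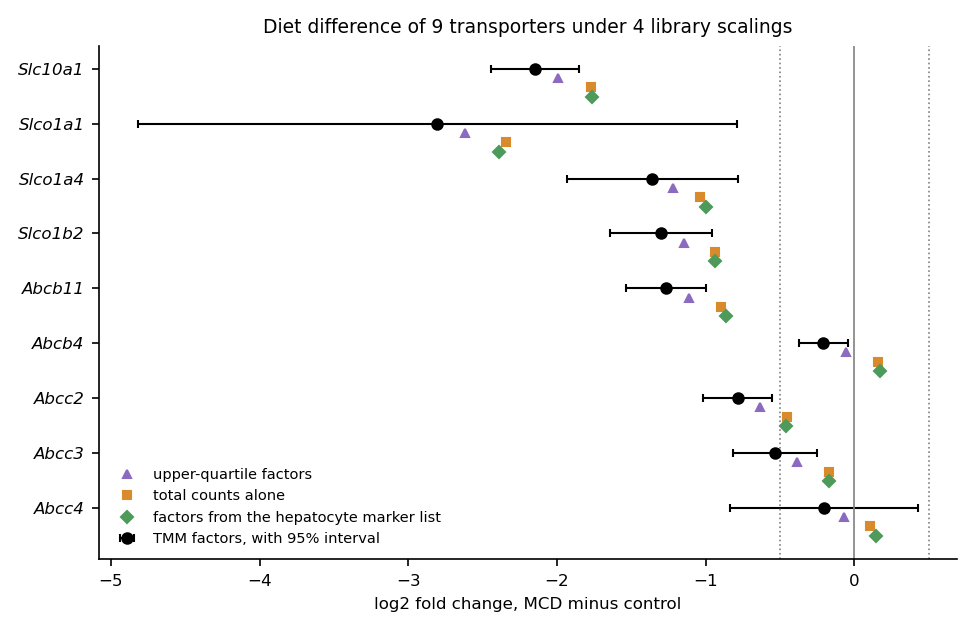
Log2 fold change (MCD minus control) of the 9 transporters tested under 4 library scalings, with the 95% interval of the TMM fit and dotted lines at the fold limit of 0.5 on either side. Slc10a1, Slco1a4, Slco1b2 and Abcb11 stay left of the limit under all 4 scalings, while Abcb4 and Abcc4 cross zero.

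Ratios of transporters within a library do not depend on scaling, and 3 were computed per kb of each gene's longest transcript. The pairs were chosen after the member values had been seen, so the ratios are a description and carry no test. Slc10a1 stood at 2.06 to 5.36 times Abcb11 in control (median 3.58) and at 1.12 to 2.94 times in MCD (median 2.04). The groups overlapped, with 6 MCD livers below every control liver, and the log2 ratio was 0.85 lower in MCD livers, a difference of -0.85 (SE 0.16, n = 12 per diet). The other uptake carriers called lower, Slco1b2 (-1.30) and Slco1a4 (-1.36), had log2 fold changes close to that of Abcb11 (-1.27).

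Abcb4 stood at 0.839 to 1.87 times Abcb11 in control (median 1.16) and at 1.57 to 4.26 times in MCD (median 2.26), and 11 of 12 MCD livers were above every control liver. The difference of the log2 ratio was 1.10 (SE 0.17, n = 12 per diet). For Abcc2 over Abcc3 the medians were 1.07 and 0.845, with a log2 difference of -0.27 (SE 0.19, n = 12 per diet). It was -0.42 without control replicate 12, the lowest control value of that ratio.

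**Figure D3:**
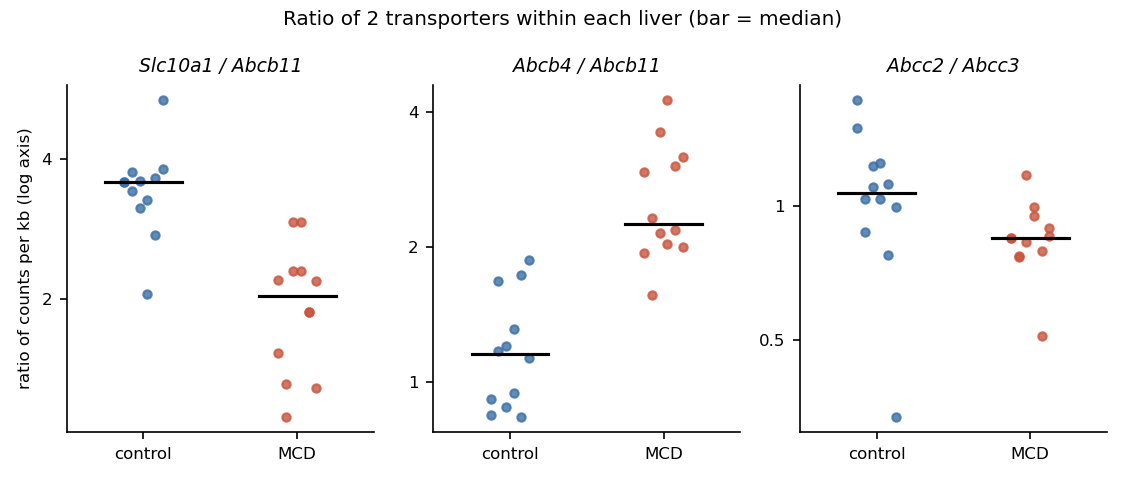
Ratio of counts per kb for 3 pairs of transporters within each liver, on log axes, by diet (12 points each, bar at the median). The ratio of Abcb4 to Abcb11 is above the control range in 11 of 12 MCD livers, and that of Abcc2 to Abcc3 overlaps.

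Levels were compared between transporters only per kb of the longest transcript. In control livers the mean order was Slc10a1 (279.7 ± 63.6 CPM per kb, SD, n = 12), Slco1b2 (232 ± 84.6), Abcb4 (93.6 ± 14.7), Abcb11 (80.5 ± 13.4), Abcc3 (62.1 ± 18.4), Abcc2 (61.8 ± 12.9), Slco1a1 (29.9 ± 43.6), Slco1a4 (20.6 ± 12.2), Abcc4 (1.21 ± 0.88) and Slc51b (0.393 ± 0.208). Most neighbours in this order did not differ beyond their spread: Slc10a1 was above Slco1b2 in 8 of 12 livers, Abcb4 above Abcb11 in 7 and Abcc3 above Abcc2 in 4. The breaks that nearly every liver shared were those between Slco1b2 and Abcb4 (11 of 12) and between Slco1a4 and Abcc4 (12 of 12).

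In MCD livers Slc10a1 stood behind Slco1b2 and Abcb4, and Abcb11 behind Abcc3 and Abcc2. The means per kb were 94.1 ± 12.9 CPM for Slco1b2, 81.0 ± 5.48 for Abcb4, 63.2 ± 15.1 for Slc10a1, 42.9 ± 7.17 for Abcc3, 35.9 ± 5.25 for Abcc2 and 33.4 ± 8.84 for Abcb11 (SD, n = 12). Abcb4 was above Slc10a1 in 10 of 12 MCD livers, and Slc10a1 was above Abcc3 in 11. Abcc2 and Abcb11 did not separate, as Abcc2 was the higher in 7 livers. The 4 scarcest members kept the last 4 places, with Slco1a4 at 8.05 ± 2.38, Slco1a1 at 4.28 ± 4.18, Abcc4 at 1.06 ± 0.32 and Slc51b at 0.709 ± 0.540 CPM per kb.

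**Figure D4:**
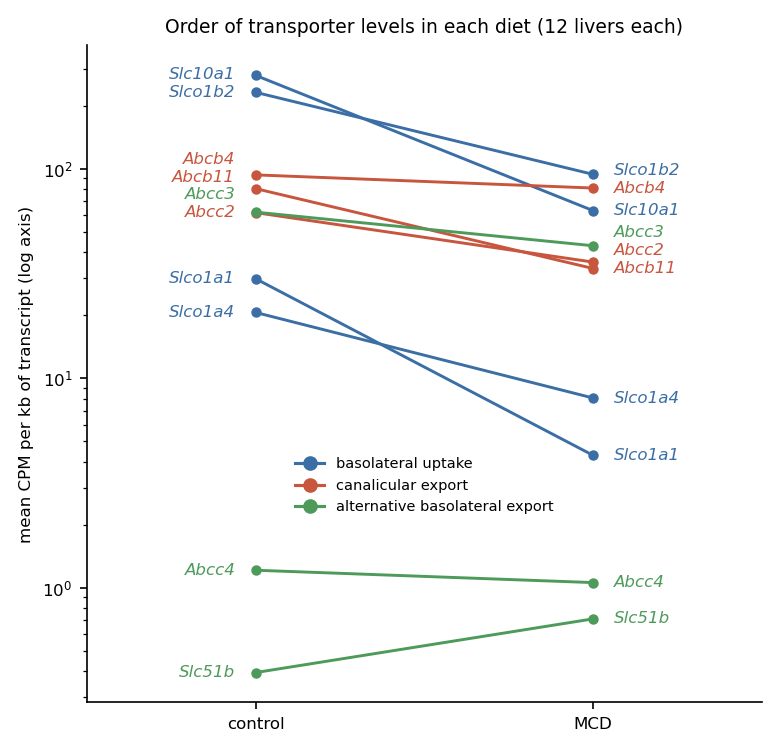
Mean level of the 10 transporters, in CPM per kb of the longest transcript on a log axis, in control and MCD livers (12 each), coloured by route. The line of Slc10a1 starts highest at 279.7 and ends in the third place at 63.2 CPM per kb, while Abcb4 runs nearly level.

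The coefficient of variation over 12 livers was lower among MCD than control livers for 7 of the 9 members tested, a share no higher than the 90.0% of all genes that showed the same. It was 36.4% and 13.7% for Slco1b2, 72.6% and 30.5% for Abcc4 and 15.7% and 6.77% for Abcb4, in control and MCD livers. The exceptions were the 2 members whose diets did not overlap, Slc10a1 (22.7% and 23.9%) and Abcb11 (16.6% and 26.4%).

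Other genes of bile formation were read from lists, and 13 of 19 further hepatobiliary transporters tested fell while 2 rose. The lowest were Slc10a5 (-1.58, edgeR FDR 5.28e-06), an orphan relative of Slc10a1, and Slco2b1 (-1.42, edgeR FDR 1.05e-10), a further organic anion carrier. Those that rose were both exporters of low level: Abcc1 (2.14, edgeR FDR 3.79e-11), from a median of 2.84 to 12.5 CPM, and Abcb1b (0.99, edgeR FDR 0.00206), from 0.972 to 2.20 CPM. Unlike Abcc3 and Abcc4, Abcc1 was higher in all 12 MCD livers than in any control liver. Under total counts alone 7 of the 19 were lower.

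Among 14 regulators of these transporters 7 were lower and 0 higher under TMM, with the largest falls in Ppara (-1.76, edgeR FDR 2.51e-08), the fatty acid sensor, and Nr1i3 (-0.90, edgeR FDR 4.65e-05), which encodes CAR. With total counts alone 2 were lower, and with that scaling, upper-quartile factors, DESeq2 and the replicate block alike 1 was higher: Cebpb, an acute-phase and metabolic factor named after its values were seen, at 0.55 (edgeR FDR 0.0165) under TMM and 0.59 to 0.94 in those 4. Nr1h4, encoding FXR, fell by 0.64 on the log2 scale (SE 0.10, edgeR FDR 7.09e-06) but was inside the fold limit with upper-quartile factors (-0.48). Its target Nr0b2 was at 0.20 (SE 0.26, edgeR FDR 0.507), with a median of 17.3 CPM in control and 21.6 CPM in MCD livers, and Hnf4a was at -0.49, just inside the limit. Nfe2l2, which encodes the NRF2 factor known to raise Abcc2, Abcc3 and Abcc4, was at -0.32 and not called, and turned to 0.02 with total counts alone. Of 7 reference targets of NRF2, CAR and PXR, Nqo1 (0.68) and Srxn1 (0.64) rose and Cyp2b10 (-3.16) and Gclc (-0.64) fell, but Gclc was not called with total counts alone (-0.30, edgeR FDR 0.0567) or upper-quartile factors (-0.495). Among 10 genes listed for anchoring or delivering canalicular transporters, 3 fell, with Pdzk1 (-0.78) and Rdx (-0.71) the lowest. With total counts alone 0 of the 10 were lower. Ezr (1.90) rose from a median of 5.87 to 22.6 CPM, and which cells held its transcript was not tested. Rdx encodes radixin, which ties Abcc2 to the canalicular membrane.

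The series held both sexes, so the diet effect was also read along a sex-linked expression score: Xist less the mean of 4 Y-linked genes, all as log2 CPM. The score lay between -8.01 and -5.21 or between 10.7 and 12.5, with 6 libraries of each diet above 0. It entered the fit only as a number, in units of its SD, and no library was assigned a sex. In control livers 3 of the 9 members followed the score, where 14.3% of all genes did at an FDR of 0.05. Slco1a1 changed by -3.07 per SD (SE 0.40, edgeR FDR 7.46e-06), Slco1a4 by 0.75 (SE 0.11, edgeR FDR 3.26e-05) and Abcc4 by 0.93 (SE 0.13, edgeR FDR 1.38e-05). Individual livers varied at either end of the score. Control replicate 1, with a score of -7.22, had 451.5 CPM of Slco1a1, the control maximum, 40.7 of Slco1a4 and 2.25 of Abcc4. Control replicate 3, with a score of 12.4, had 0.896 (the control minimum), 105 and 17.0 CPM (the control maximum of Abcc4). Control replicates 11 and 7, with scores of -7.31 and 11.4, had 14.7 and 7.40 CPM of Slco1a1. They had 69.5 and 159.5 CPM of Slco1a4 and 4.84 and 7.63 CPM of Abcc4.

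In MCD livers 2 of the 9 members followed the score, where 1.67% of all genes did. Slco1a1 still changed by -1.76 per SD (SE 0.39, edgeR FDR 0.0134), and Abcb11 by 0.36 (SE 0.07, edgeR FDR 0.00258). MCD replicate 10, with a score of -5.21, had 102 CPM of Abcb11, the MCD minimum, and MCD replicate 8, with a score of 10.8, had 238 CPM, the maximum. MCD replicates 2 and 5, with scores of -6.09 and 10.7, lay closer, at 151 and 182 CPM of Abcb11. In control livers its slope was 0.06 (SE 0.06, edgeR FDR 0.52). These slopes, and the diet effects at 2 points of the score given next, were added after the values had been seen.

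A difference of the diet effect along the score was tested by the product of diet and score, and Abcc4 was the member that passed, where 1.35% of all genes did. Its term was -1.06 per SD (SE 0.18, edgeR FDR 0.00256). At a score 1 SD below its mean Abcc4 was higher on the MCD diet, by 1.15 (SE 0.26, edgeR FDR 0.000674), and at 1 SD above it was lower, at -0.96 (SE 0.25, edgeR FDR 0.00272). At those points 18.2% of all genes were higher and 14.7% lower by the threshold of the first comparison. The pooled value of -0.21 lies between these opposite differences. Among MCD livers the slope was -0.12 (SE 0.13, edgeR FDR 0.987): replicate 9, with a score of -7.27, had 5.10 CPM and replicate 5, with a score of 10.7, had 5.197 CPM. The MCD maximum, 11.3 CPM, was that of replicate 11, with a score of -6.35.

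The other diet by score terms did not pass in all libraries, which does not show that the diet effect was the same along the score. For Abcb11 the term was 0.30 (SE 0.09, edgeR FDR 0.121) and for Slco1b2 it was 0.39 (SE 0.15, edgeR FDR 0.235). Both passed without control replicate 12 (0.32, FDR 0.0449, and 0.45, FDR 0.0444), and Abcb11 also without control replicate 8 (0.34, FDR 0.0496). For Slc10a1 the fall was -2.31 at 1 SD below the mean score and -2.0 at 1 SD above, both called. Slco1a1 was called lower at the low point (-2.68, SE 0.70, edgeR FDR 0.0021) and not at the high point (-0.07, SE 0.77, edgeR FDR 0.951), and its product term was 1.31 (SE 0.51, edgeR FDR 0.25).

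**Figure D5:**
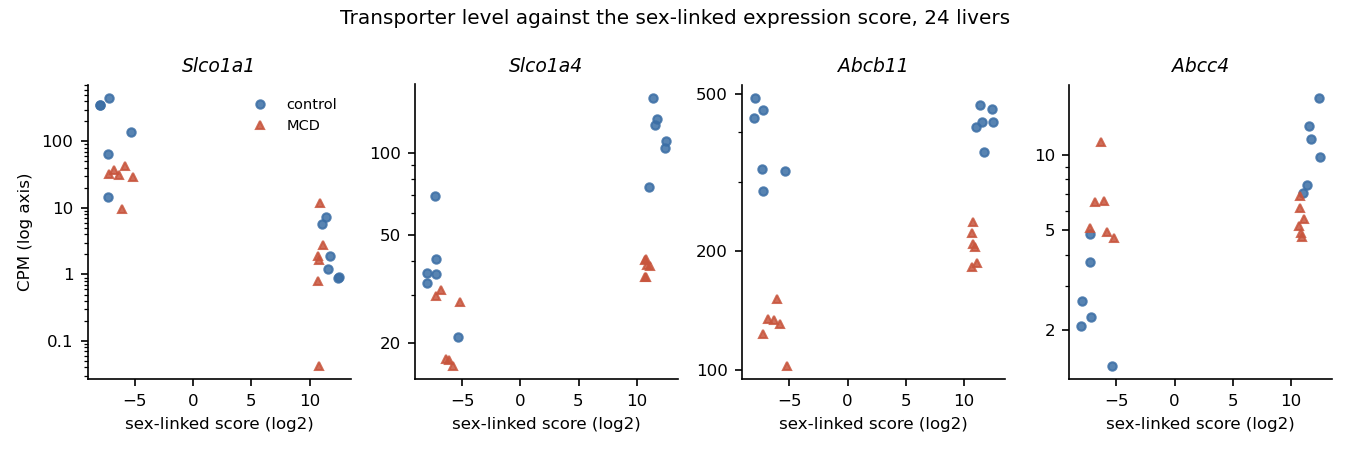
TMM-scaled CPM of 4 transporters (log axes) against the sex-linked expression score in 24 livers, with circles for control and triangles for MCD. Control livers spread along the score for Slco1a1, Slco1a4 and Abcc4. Among MCD livers Abcc4 is nearly level apart from replicate 11 at 11.3 CPM. The MCD points of Abcb11 run from the lowest, 102 CPM at a score of -5.21, to the highest, 238 CPM at 10.8.

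The genes whose levels varied most like those of the members were taken from 13103 genes with a mean of at least 1 CPM, by Pearson's r of log2 CPM deviations from the diet means over 24 libraries. They were Masp2 for Slc10a1 (r = 0.847), Serpina1e for Slco1a1 (0.957), Cyp3a44 for Slco1a4 (0.903), Akr1c14 for Slco1b2 (0.945), Cyp2c29 for Abcb11 (0.868), Camk2n2 for Abcb4 (0.764), the mitochondrial gene mt-Nd5 for Abcc2 (0.928), Plin4 for Abcc3 (0.861) and Kctd12 for Abcc4 (0.895). Without control replicate 12 these r values ran from 0.742 to 0.956, and that of Abcc2 with mt-Nd5 was 0.85. Among the members themselves the highest r was that of Slco1a4 with Abcc4 (0.73) and the lowest that of Slco1a1 with Slco1a4 (-0.792). The points share library depth and the spread along the sex-linked score, so the values are a description and carry no test.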

How the data were processed

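RNA of whole livers was extracted with Trizol and sequenced as poly(A)-selected libraries. The authors deposited 1 table of unnormalized read counts, with a row for each Ensembl gene. The submitters' processing notes list bcl2fastq, STAR 2.7.3a and mm10, while for the mouse table the counting program, the annotation release and the use of strand are not given in the sources used here. The study's methods name a stranded mRNA kit, the exon quantification pipeline and PISCES, but with a human reference. Gene symbols, coordinates and transcript lengths were taken from GENCODE mouse release 21 (GRCm38), and symbols named 51745 rows. Unnamed rows took 0.0808% of the counts.

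Members and gene lists were chosen with earlier results of these data known. Genes were kept by filterByExpr and scaled with TMM factors in edgeR 4.0.16 (R 4.3.3), and MCD was compared with control by glmQLFit and glmQLFTest with Benjamini-Hochberg adjustment over all genes tested. The threshold is the one the study applied to human liver, and the SE is the log2 fold change over the square root of F. The diet by score term used an FDR of 0.05. Beyond the members, the genes named were the 2 largest called rises and falls of a list, 5 genes named in advance and the gene most like each member. Cebpb, Slc10a2 and Cd5l were named outside this rule, after their values were seen. Alternatives were relative log expression, upper-quartile, total-count and hepatocyte-list scaling, no filter, a minimum of 10 counts in each library, limma-voom (limma 3.58.1), DESeq2 1.42.0, a replicate block, the score as a covariate, other thresholds and leaving out each library. The fits were tested on simulated counts. No molecular identifiers are stated, so the floor of 3 counts covers counting error only. No 2 libraries of a diet agreed within sampling noise, and p-values measure the spread between mice, for which no litter or batch is given. Figures were drawn with matplotlib 3.10.9.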

Additional observations from a re-analysis of the deposited data

Results flagged for a closer look

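The diet effect on Abcc4 differed along the sex-linked expression score, with a product term of -1.06 log2 units per SD of the score (edgeR FDR 0.00256), and it passed in all 24 fits that left out a library (-1.17 to -0.95). Slc10a2, the apical sodium-dependent bile acid carrier that is also present in bile duct cells, was flagged by the same test, with a term of 0.84 (SE 0.20, edgeR FDR 0.0344). Its slope along the score was -0.90 per SD in control livers (edgeR FDR 8.7e-05) and -0.06 in MCD livers (edgeR FDR 1), and its levels ran from 1.60 to 42.1 CPM in control and from 8.54 to 12.5 CPM in MCD. That term lost its call with total counts alone (0.78, FDR 0.061) and in 12 of the 24 fits that left out a library (0.66 to 0.91, FDR up to 0.071). The 2 genes had terms of opposite sign.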

How the results depend on the processing

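The count of members called lower was 6. It ran from 4 to 8 over 12 alternatives and from 5 to 7 when single libraries were left out (7 without control replicate 6), with 0 called higher in each. Slc10a1, Slco1a4, Slco1b2 and Abcb11 kept their direction and call in all of these. Abcb4 reversed to 0.16 with total counts alone and to 0.17 with hepatocyte-list factors. Abcc4 reversed to 0.10 and 0.14 with the same scalings, to 0.0877 with limma-voom, to 0.0627 with the score as a covariate and to 0.0301 without control replicate 3 (-0.30 to 0.03 over the fits that left out a library). Nfe2l2 reversed to 0.0226 with total counts alone. The scalings move all genes, as given above, and for the others the cause was not tested. Total counts alone gave 13 lower genes over the other lists, against 42, with 37 higher against 32, and 0 of 12 hepatocyte markers lower. The count of members with a diet by score term, 1 in all libraries, ran from 1 to 3 when libraries were left out, with 3 without control replicate 12 and 2 without control replicate 8. Among members not called there, the term of Abcc2 ran from -0.10 to 0.0041 and that of Abcc3 from -0.077 to 0.031.

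The diets share replicate numbers. Libraries of the same number had correlated deviations (r above 0.1) in 10 of 12 pairs, from -0.528 to 0.567, with replicates 2 and 8 negative. In those 10 pairs both libraries had sex-linked scores of the same sign. Replicates 2 (11.75 in control, -6.09 in MCD) and 8 (-7.28 in control, 10.8 in MCD) had scores of opposite sign. The replicate block thus overlaps with the score, whose part in these correlations was not tested. The numbers were not taken to pair the mice. With the replicate block 5 members were lower, as Abcc3 was inside the fold limit (-0.49), Slco1a1 was at -1.34 (edgeR FDR 0.157), Abcc4 reversed to 0.0916, and 34 genes of the other lists were higher and 40 lower. Low counts limit Slc51b and Slc51a, and Slco1a1 in 1 MCD library.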

Other observations

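Markers of other cell types moved in different directions. Of 7 endothelial markers 5 fell and 0 rose on the MCD diet under TMM, while 3 fell with upper-quartile factors and 2 with total counts alone. Their summed level was 198 to 293 CPM in control and 118 to 183 CPM in MCD livers, without overlap. Kdr, a receptor for VEGF, fell from a median of 52.5 to 23.9 CPM (edgeR FDR 3.7e-08). Of 7 lymphocyte markers 4 rose and 0 fell, with sums of 9.32 to 20.4 CPM in control and 31.1 to 46.9 CPM in MCD livers. Among the 10 macrophage markers, 6 rose and 3 fell, or 1 with total counts alone. Cd5l of that list, also known from Kupffer cells, was not called (0.009 on the log2 scale, edgeR FDR 0.967), with medians of 88.35 and 89.6 CPM in control and MCD livers. Timd4, a marker of resident Kupffer cells, fell from a median of 5.13 to 0.263 CPM (edgeR FDR 1.52e-11), and Clec4f, another such marker, from 132.8 to 58.7 CPM (edgeR FDR 0.000707, or 0.0108 and not called with total counts alone), while Trem2, known from lipid-associated macrophages, rose from 3.03 to 80.4 CPM (edgeR FDR 1.52e-11). Of the 9 mesenchymal markers Lrat, known from quiescent stellate cells, was the 1 that fell, from a median of 19.5 to 9.90 CPM (edgeR FDR 3.63e-05), a call lost with total counts alone. The part of these cells in the transporter values was not tested.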
